A study of Mus musculus with 2 samples.

Results

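Prostaglandins are lipid messengers made on demand from arachidonic acid. The report covers 10 genes of their synthesis, export, breakdown and reception in the mouse gut: the cyclooxygenase genes Ptgs1 and Ptgs2, the prostaglandin E synthase genes Ptges, Ptges2 and Ptges3, the prostaglandin D synthase gene Hpgds, the transporter gene Slco2a1, the dehydrogenase gene Hpgd, and the receptor genes Ptger1 and Ptger4. All 10 were found by symbol among the 18067 genes of the expression table, and all 10 averaged 1 TPM or more across the libraries (TPM, a length-corrected share of all transcripts), as did 12666 genes in all. The genes were selected on their place in the pathway by someone who had the wild-type and knockout values of these libraries in view, so the difference between the libraries helped to choose them, and all values below are a description with no test. Ptgs2 passed the floor only through its level in the knockout library.

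RNA-seq had been run on bulk RNA of small-intestinal cells from mice, given in the labels as stem cells. The groups were circBtnl1 wild-type (1 library) and circBtnl1 knockout (1 library), where circBtnl1 is a circular RNA named after Btnl1, a butyrophilin-like gene. The labels give no strain, age, sex, treatment or number of animals, and no allele other than circBtnl1. With 1 library in a group, no value could be set against the spread between animals, and no p-value is given.

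In this pathway phospholipases free arachidonic acid from membranes, and a cyclooxygenase turns it into the unstable prostaglandin H2. Terminal synthases then make prostaglandin E2, prostaglandin D2 and other products, which leave the cell and act on G protein-coupled receptors, until the transporter carries them back into cells where the dehydrogenase inactivates them. In the intestine prostaglandin E2 is known for its part in crypt regeneration after injury and in polyp growth, and loss of the dehydrogenase raises tissue prostaglandin E2.

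A promoter window at an annotated start of each cyclooxygenase gene and of Slco2a1 is shown because these 3 genes had the most distant values in the libraries. Each is the RefSeq window of GRCm38.p6 from 250 bases before to 50 bases after an annotated start, read 5′ to 3′ on the gene's strand, with matches to the searched motifs in capitals. The windows are chr2:36230176-36230475 (plus strand) for Ptgs1, chr1:150099781-150100080 (plus strand) for Ptgs2 and chr9:103008237-103008536 (plus strand) for Slco2a1.
Ptgs1: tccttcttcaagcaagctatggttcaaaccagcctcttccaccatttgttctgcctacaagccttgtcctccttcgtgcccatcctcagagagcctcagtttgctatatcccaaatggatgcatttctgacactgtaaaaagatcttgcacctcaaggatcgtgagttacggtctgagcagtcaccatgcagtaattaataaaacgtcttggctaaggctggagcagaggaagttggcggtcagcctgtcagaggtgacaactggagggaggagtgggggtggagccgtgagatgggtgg
Ptgs2: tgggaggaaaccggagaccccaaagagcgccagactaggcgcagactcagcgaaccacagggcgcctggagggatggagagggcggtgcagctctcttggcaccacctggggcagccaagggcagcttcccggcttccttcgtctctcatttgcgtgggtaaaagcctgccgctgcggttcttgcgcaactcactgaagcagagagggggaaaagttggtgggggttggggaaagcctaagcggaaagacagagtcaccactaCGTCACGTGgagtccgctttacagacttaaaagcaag
Slco2a1: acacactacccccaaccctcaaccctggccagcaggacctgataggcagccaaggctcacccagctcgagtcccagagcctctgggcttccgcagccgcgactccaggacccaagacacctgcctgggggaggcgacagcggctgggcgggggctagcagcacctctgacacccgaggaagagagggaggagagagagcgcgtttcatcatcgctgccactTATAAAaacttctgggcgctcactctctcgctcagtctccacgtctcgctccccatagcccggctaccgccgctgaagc

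The motifs were searched on both strands as TATAAA for the TATA box, then CACGTG for the E-box, then TGANTCA for the AP-1 element and TGACG for the core of the cyclic AMP response element. The Ptgs2 window held an E-box 17 bases after the annotated start and the cyclic AMP response core on the opposite strand 14 bases after it, and both matches overlap, so the capitals form a single run. The Slco2a1 window held a TATA box 29 bases before the start. None of the 4 motifs was found in the Ptgs1 window (0 matches), which says only that these letters are not in it. The annotated genes begin at base 36216742 for Ptgs1 and 103007061 for Slco2a1, upstream of their windows. The sequence at those upstream ends was not searched. Over all 32851 windows of the table, 13.6% held the TATA box, 7.15% the E-box, 7.81% the AP-1 element and 20.8% the cyclic AMP response core. Of the other genes with a window, Hpgd had a TATA box 5 bases after its annotated start, Ptges2 an E-box 77 bases before it and Ptges3 the cyclic AMP response core, also on the opposite strand, 12 bases after it. Windows were found for 9 of the 10 genes, and Ptger1 had none. The GC content of the Ptgs1 window was 50.7% with 6 CpG dinucleotides, against 59.3% and 16 in the Ptgs2 window, where the median window of the table had 52.7% and 7. A match is a description of the sequence, and no binding was measured here.

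The cyclooxygenase genes stood far higher in the knockout library. Ptgs2 (Entrez gene 19225, chromosome 1, 150100031 to 150108234, GRCm38) encodes the inducible enzyme, which is low in resting tissue and high after injury or inflammation. It stood at 0.21 TPM in wild-type cells and at 215 TPM in knockout cells, a log2 ratio of 9.44. The wild-type value rests on an estimated 9 reads and the knockout value on about 8300, so the plain ratio of 1023-fold is imprecise at its lower end. Only 6 of the 12666 measured genes had a higher log2 ratio. Within its own library the gene moved from the 22.2 percentile of all genes to the 95.8 percentile.

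Ptgs1 (Entrez gene 19224, chromosome 2, 36216742 to 36258593) encodes the constitutive enzyme and is known in the gut from tuft cells, a chemosensory epithelial type. It stood at 1.22 TPM in wild-type cells and at 13.4 TPM in knockout cells, which is 11.0-fold higher (log2 ratio 3.36). These values correspond to about 34 and 330 reads. A higher log2 ratio was found in 436 measured genes. Within their libraries, Ptgs1 was at the 35.4 percentile in the wild-type and at the 55.2 percentile in the knockout.

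**Figure D1:**
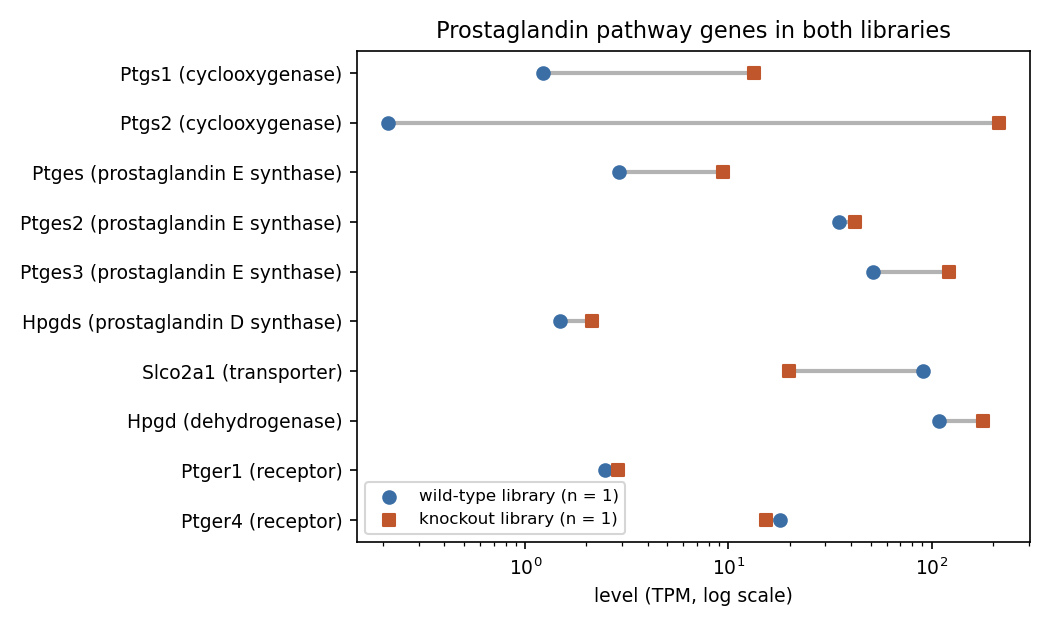
Level of each of the 10 prostaglandin genes in TPM (log scale), with the wild-type library as a circle and the knockout library as a square, 1 library each. Ptgs2 spans from 0.21 to 215 TPM, while Slco2a1 is the gene whose square lies furthest to the left of its circle, with 90.1 TPM in wild-type and 19.8 TPM in knockout cells.

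The makeup of cyclooxygenase transcripts turned over between the libraries. Together the pair summed to 1.43 TPM in wild-type cells and 228 TPM in knockout cells. Ptgs1 held 85.3% of that sum in the wild-type library and 5.88% in the knockout library, where Ptgs2 held 94.1%. Ptgs1 was 5.81 times as abundant as Ptgs2 in the wild-type library, and Ptgs2 was 16.0 times as abundant as Ptgs1 in the knockout library. A ratio within a library does not depend on how the libraries are scaled to each other.

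Known sources of cyclooxygenase transcripts other than crypt epithelium were read from marker lists. For tuft cells, the sum over 15 markers was 50.3 TPM in wild-type cells and 42.3 TPM in knockout cells. The 11 measured markers had a median log2 ratio of -0.37, against 0.39 for all measured genes. Il25, below the floor, stood at 0.1 TPM in the wild-type library and was listed at 0 in the knockout library. Sh2d6, the most abundant tuft marker, stood at 12.6 against 12.7 TPM. Of 11 measured tuft markers 1, Rgs13, was higher by 2-fold or more, at 0.86 against 2.18 TPM, and 1, Ltc4s, lower by 2-fold or more. Rgs13 passed the floor only through its level in the knockout library. Over all measured genes 23.1% were higher and 5.25% lower by 2-fold or more. With the libraries scaled by a trimmed mean of their log ratios, which lowers all knockout values by 0.40 on the log2 scale, the tuft counts were 0 and 2. After that scaling 13.4% of all measured genes were higher and 10.3% lower. The part of tuft cells in the Ptgs1 value was not tested.

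For Ptgs2, which fibroblasts and myeloid cells can express, the 2 lists went opposite ways. The 10 fibroblast markers summed to 67.2 TPM in wild-type cells and 321 TPM in knockout cells, with 5 of 7 measured markers higher by 2-fold or more (3 after trimmed mean scaling, with 1 lower), where 23.1% of all measured genes were (13.4% after that scaling). Among these, Vim stood at 20.9 against 167 TPM and Col1a2 at 3.76 against 64.4 TPM, while Col1a1 stood at 7.95 against 8.05 TPM and Col3a1 at 5.73 against 3.18 TPM. Below the floor, Pdgfra stood at 0.06 against 0.71 TPM and Dpt at 0.53 against 0.28 TPM. The 12 macrophage and neutrophil markers summed to 46.2 and 17.6 TPM, with 5 of 10 measured markers lower by 2-fold or more (7 after trimmed mean scaling), where 5.25% of all measured genes were (10.3% after that scaling). Their most abundant gene, Cd68, stood at 8.09 against 5.53 TPM, Adgre1 was listed at 0 in the wild-type and S100a9 at 0 in the knockout library. A further list of 8 smooth muscle markers summed to 45.4 TPM in wild-type cells and 27.7 TPM in knockout cells. Of 4 measured, 0 were higher by 2-fold or more and 2 lower, also after trimmed mean scaling. The 2 were Acta2, at 4.06 against 0.81 TPM, and Des, at 1.77 against 0.52 TPM, and both passed the floor only through their wild-type levels. The part of fibroblasts, of smooth muscle and of myeloid cells in the Ptgs2 value was not tested. In bulk RNA, fewer cells of a type and less RNA in each cell cannot be told apart.

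The measured genes nearest to each cyclooxygenase gene in level over the 2 libraries were found by Euclidean distance in log2(TPM + 0.1). For Ptgs2 they were Il1rl1, the interleukin 33 receptor gene, at 0.26 against 142.5 TPM, then Car6, a secreted carbonic anhydrase gene, at 0.08 against 252 TPM, and 1700012B09Rik at 0.16 against 96.1 TPM. For Ptgs1 they were Ciart, a clock-associated repressor gene, at 1.35 against 13.2 TPM, Frmd6 at 1.37 against 12.5 TPM and Tbkbp1 at 1.35 against 14.8 TPM. The log2 distances ran from 0.63 to 1.19 for Ptgs2 and from 0.14 to 0.20 for Ptgs1, so the genes nearest to Ptgs2 still differed from it in level.

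The prostaglandin E synthases differed less, and their order of abundance was the same in both libraries. Ptges (Entrez gene 64292, chromosome 2), the membrane-bound and inducible synthase that works with the inducible cyclooxygenase, stood at 2.89 TPM in wild-type cells and 9.4 TPM in knockout cells, 3.25-fold higher. Ptges3 (Entrez gene 56351, chromosome 10), which encodes p23, a cochaperone of Hsp90 that also has cytosolic synthase activity, stood at 51.6 and 122 TPM, 2.36-fold higher. Ptges2 (Entrez gene 96979, chromosome 2), a second membrane-associated synthase, stood at 35.2 and 42.03 TPM, a difference within 2-fold. Ptges3 has a processed copy elsewhere in the genome, so reads may be divided between copies by the authors' estimate.

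The sum of the 3 prostaglandin E synthase genes was 89.7 TPM in wild-type cells and 173 TPM in knockout cells. Ptges3 made up 57.6% of it in wild-type cells and 70.3% in knockout cells, and Ptges 3.22% and 5.43%. The inducible synthase gene therefore remained the least abundant of the 3, although its log2 ratio of 1.67 was the highest among them. Ptges2 was 12.2 times as abundant as Ptges in wild-type cells and 4.47 times in knockout cells.

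**Figure D2:**
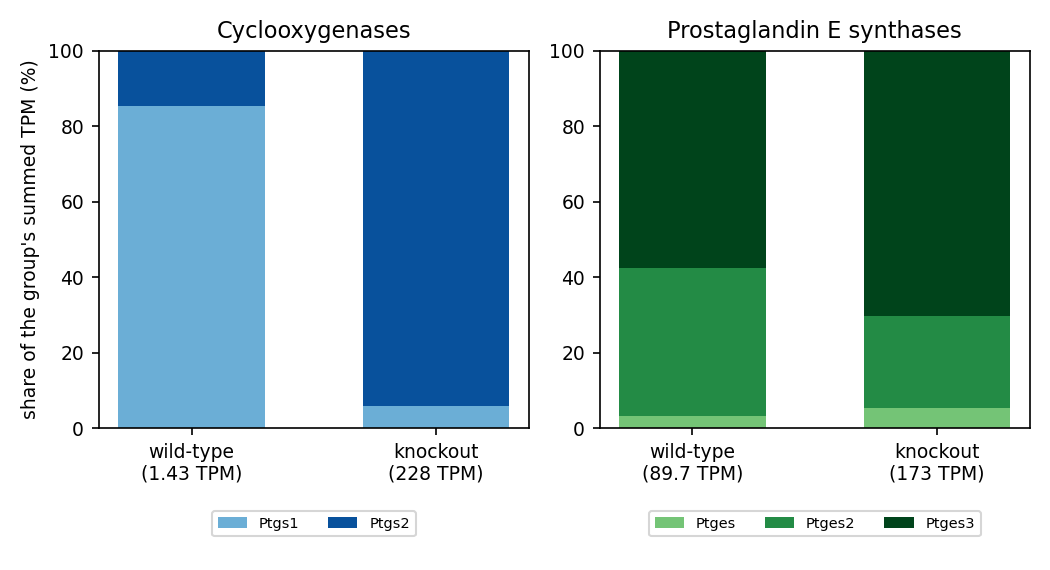
Share of the summed TPM held by each gene (%) among cyclooxygenase genes (left) and prostaglandin E synthase genes (right) in the wild-type and knockout library, with the sum in brackets and 1 library in each bar. Ptgs2 fills 14.7% of the left wild-type bar and 94.1% of the knockout bar, while Ptges3 is the largest part of both right bars.

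Hpgds (Entrez gene 54486, chromosome 6), the hematopoietic prostaglandin D synthase of mast cells, some T cells and tuft cells, was low in both libraries. It stood at 1.49 TPM in wild-type cells and 2.14 TPM in knockout cells, or about 50 and 65 reads. In the gut mast cell list, which summed to 128 and 74.1 TPM, 1 of 7 measured genes was higher by 2-fold or more and 2 were lower. Over all measured genes 23.1% were higher and 5.25% lower by 2-fold or more. After trimmed mean scaling 1 of the 7 was higher and 3 were lower, where 13.4% and 10.3% of all measured genes were. Mcpt1, the most abundant, stood at 81.2 against 31.7 TPM, Cma1 at 7.79 against 0.97 TPM and Kit at 11.8 against 14.2 TPM. Gata2, the 1 higher gene, stood at 0.3 against 9.42 TPM and passed the floor only through its level in the knockout library. The part of mast cells in the Hpgds value was not tested. The prostaglandin E synthases summed to 60.2 times the level of Hpgds in wild-type cells and 81.0 times in knockout cells. Ptgds, another prostaglandin D synthase gene, stood at 9.45 against 11.9 TPM and is not in these ratios. Ptges3 held 57.6% and 70.3% of the prostaglandin E synthase sum, so the ratios do not compare the E and D branches as a whole.

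Slco2a1 (Entrez gene 24059, chromosome 9, 103007061 to 103096002) encodes the prostaglandin transporter, which takes prostaglandins into cells for breakdown. It was the single member lower by 2-fold or more in knockout cells, at 90.1 TPM in wild-type cells and 19.8 TPM in knockout cells, 4.55-fold lower. The estimated reads were about 6200 and 1200. Lower log2 ratios than its -2.18 were found in 174 measured genes. Slco2a1 is also known from endothelium, whose 8 markers summed to 2.36 TPM in wild-type cells and 2.67 TPM in knockout cells. After trimmed mean scaling the knockout sum was 2.02. The most abundant of these, Pecam1, stood at 0.98 against 1.1 TPM and was the 1 endothelial marker at the floor. Of the 8, 5 were higher in value, such as Cdh5 at 0.13 against 0.2 TPM, and 3 were lower, Kdr at 0.21 against 0.08 TPM, Tek at 0.08 against 0.03 TPM and Cldn5 at 0.15 against 0.08 TPM. The share of all genes higher or lower in value was not computed, so nothing is read from these counts. The part of endothelium in the Slco2a1 value was not tested.

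Hpgd (Entrez gene 15446, chromosome 8, 56294552 to 56321046) encodes 15-hydroxyprostaglandin dehydrogenase, which carries out the first step of prostaglandin breakdown. It was the most abundant of the 10 genes in the wild-type library, at 108 TPM, and stood at 178 TPM in the knockout library, 1.65-fold higher and under the 2-fold mark. Ptgs2, at 215 TPM, was above it in the knockout library only. The transporter and the dehydrogenase act in sequence. Slco2a1 stood at 0.834 of the Hpgd level in wild-type cells and 0.111 in knockout cells.

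Set against the breakdown enzyme, the 2 cyclooxygenase genes summed to 0.0132 of the Hpgd level in the wild-type and 1.28 of it in the knockout library. Hpgd was 75.5 times as abundant as the cyclooxygenase sum in the former. The log2 difference between these within-library ratios was 6.59. It measures transcripts only, and prostaglandin levels and enzyme activity were not measured.

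The receptor genes were nearly level. Ptger4 (Entrez gene 19219, chromosome 15) encodes EP4, a receptor of prostaglandin E2 that raises cyclic AMP and is the main such receptor of gut epithelium. It stood at 17.9 TPM in wild-type cells and 15.2 TPM in knockout cells, 1.17-fold lower (log2 ratio -0.23, and -0.63 after trimmed mean scaling). Ptger1 (Entrez gene 19216, chromosome 8, 83666644 to 83672756) encodes EP1, which signals through calcium, and stood at 2.47 and 2.85 TPM. Whether the counting used strand is not given in the sources used here, so the Ptger1 value is uncertain.

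Among 8 other receptor-related genes, only Ptger3 and Ptgfrn were measured. Ptger3, which encodes the receptor EP3 that lowers cyclic AMP, stood at 1.33 and 2.88 TPM, 2.17-fold higher. It came under 2-fold after trimmed mean scaling, with a log2 ratio of 0.67. Ptgfrn, a negative regulator of the prostaglandin F receptor, stood at 73.2 and 50.8 TPM. The remaining receptors were at or close to 0 in both libraries: Ptger2, which encodes EP2, was listed at 0 in wild-type cells and at 0.11 TPM in knockout cells, and Ptgfr at 0 and 0.15 TPM. Ptger4 was thus the most abundant prostaglandin E2 receptor gene in each library, 7.23 times the level of Ptger1 in wild-type cells and 5.35 times in knockout cells.

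Of the 10 genes, 4 were higher by 2-fold or more in the knockout library (Ptgs2, Ptgs1, Ptges and Ptges3), 1 was lower by 2-fold or more (Slco2a1) and 5 were within 2-fold. Over all 12666 measured genes, 23.1% were higher by 2-fold or more and 5.25% lower by 2-fold or more. At 4-fold, 2 genes were higher (Ptgs2 and Ptgs1) and 1 lower (Slco2a1), where 7.48% and 1.56% of all measured genes were. Since the difference between the libraries helped to choose the genes, nothing is read from these counts. The median log2 ratio was 0.61 for the 10 genes and 0.39 for all measured genes.

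The general shift towards higher values in the knockout library bears on the smaller differences. With the libraries scaled by a trimmed mean of log ratios, a shift of 0.40 on the log2 scale, 3 genes remained higher by 2-fold or more (Ptgs2, Ptgs1 and Ptges) and 1 lower (Slco2a1), against 13.4% and 10.3% of all measured genes. The share of 2-fold genes that were higher went from 81.5% to 56.5% over all genes. Ptges3 then had a log2 ratio of 0.83 and Hpgd of 0.32. Ptges2 and Ptger1 changed sign, from 0.26 to -0.15 and from 0.20 to -0.19, so no direction is given for either. Slco2a1 was at -2.58 and Ptger4 at -0.63 on this scale.

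**Figure D3:**
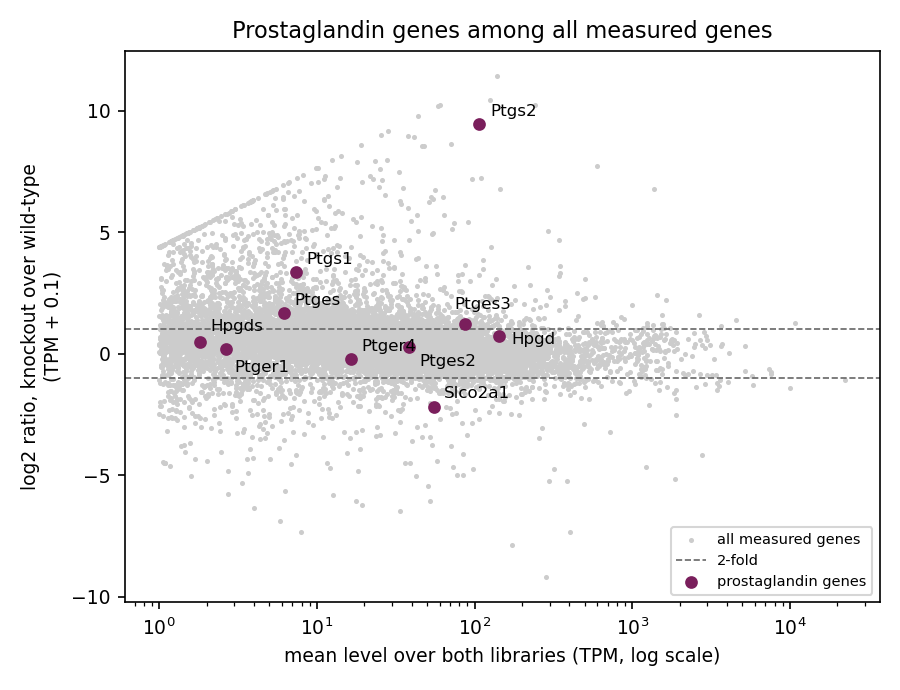
Log2 ratio of knockout over wild-type TPM (0.1 added to each) against the mean level over both libraries (TPM, log scale) for all 12666 measured genes in grey and the 10 prostaglandin genes in purple, with dashed lines at 2-fold. Ptgs2, at 9.44, lies near the upper edge of all genes, and Slco2a1, at -2.18, is the 1 prostaglandin gene below the lower dashed line.

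**Figure D4:**
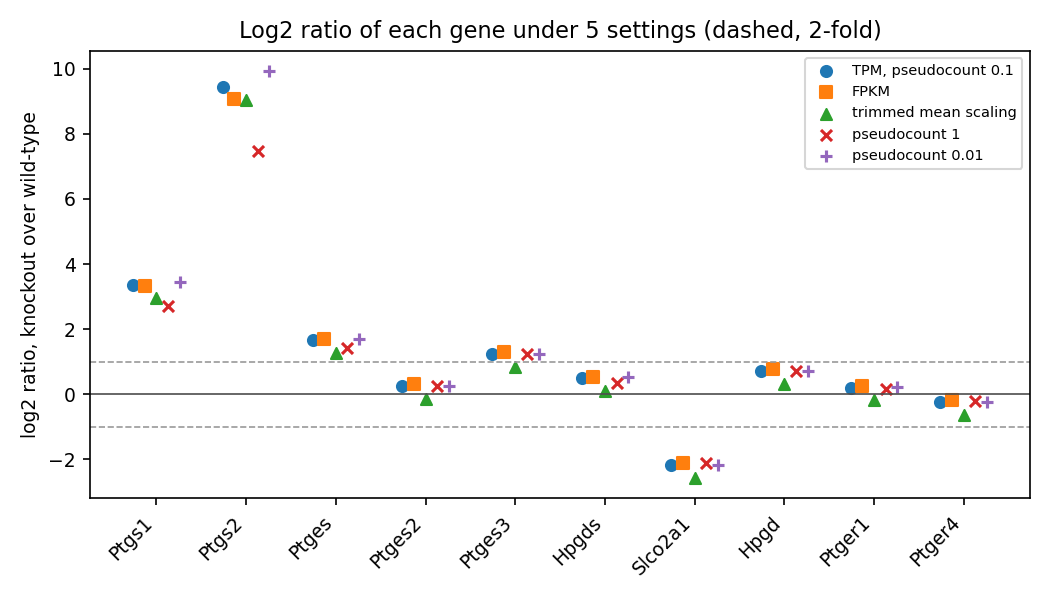
Log2 ratio of knockout over wild-type for each of the 10 genes from TPM with 0.1 added, from FPKM, after trimmed mean scaling, and with 1 or 0.01 added, with dashed lines at 2-fold. The order of Ptgs2, Ptgs1 and Ptges at the top and Slco2a1 at the bottom is the same in each, while Ptges3 drops under 2-fold after trimmed mean scaling.

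Genes that act next to these 10 were read from 7 lists. Each list's counts stand beside 23.1% of all measured genes higher by 2-fold or more and 5.25% lower (13.4% and 10.3% after trimmed mean scaling), and its median beside 0.39. Of 17 measured genes of substrate release, 4 were higher by 2-fold or more and 4 lower by 2-fold or more (3 and 4 after trimmed mean scaling), with a median log2 ratio of 0.18. Pla2g4a, the cytosolic phospholipase A2 that feeds the cyclooxygenases, stood at 16.8 against 42.9 TPM, 2.56-fold higher. It is the gene that came under 2-fold after trimmed mean scaling, with a log2 ratio of 0.95. Pla2g4a is the protein-coding neighbour of Ptgs2 on chromosome 1, with a gap of 139 kb and no (0) protein-coding gene annotated between them. Pla2g4c, another cytosolic form, was 4.88-fold higher, at 47.0 against 229 TPM, and the secreted form Pla2g2e stood at 1.66 against 28.4 TPM.

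Other phospholipases were lower in the knockout library. Pla2g4f was 12.4-fold lower, at 74.7 against 6.04 TPM, the secreted Pla2g2f stood at 42.1 against 12.3 TPM, and Pla2g10, the most abundant secreted form in the wild-type library, at 200.1 against 87.9 TPM. The summed level of the 18 listed genes in the table was 702 TPM in wild-type cells and 722 TPM in knockout cells, or 546 in the latter after trimmed mean scaling.

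Of 8 other measured terminal synthases, 1 was higher by 2-fold or more and 1 lower by 2-fold or more, also after trimmed mean scaling. Ptgis, the prostacyclin synthase gene, stood at 3.19 against 12.3 TPM and Cbr2, a carbonyl reductase gene, at 91.8 against 32.5 TPM. Akr1b3, an aldose reductase gene whose product can make prostaglandin F, stood at 74.8 against 148 TPM, 1.99-fold higher, and Cbr1 was the most abundant, at 317 against 339 TPM. The thromboxane synthase gene Tbxas1 was below the floor, at 0.25 against 0.13 TPM.

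Among 10 other measured genes of transport and breakdown, 1 was higher by 2-fold or more and none (0) lower by 2-fold or more. After trimmed mean scaling there was 1 in each direction. Abcc4, the exporter of prostaglandin E2, had 5.41 TPM in wild-type and 19.1 TPM in knockout cells (3.52-fold higher), whereas the uptake transporter gene Slco2a1 was lower. Cyp4f16, a fatty acid hydroxylase gene, stood at 82.0 against 47.1 TPM. Cyp4f14, the most abundant, stood at 176 against 159 TPM.

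The leukotriene and lipoxygenase branch, which competes for arachidonic acid, held genes lower in knockout cells. Of 10 measured genes 3 were lower by 2-fold or more and 1 higher by 2-fold or more (5 and 1 after trimmed mean scaling), where 5.25% of all measured genes were lower and 23.1% higher (10.3% and 13.4%). The median log2 ratio was -0.34, against 0.39 for all measured genes. Alox15 stood at 7.17 against 0.57 TPM and Ltc4s, the leukotriene C4 synthase gene and also a tuft cell marker, at 5.14 against 2 TPM. Aloxe3, an epidermal lipoxygenase gene, stood at 0.13 against 2.7 TPM, and Lta4h, the most abundant, at 93.2 against 98.9 TPM. Alox15 passed the floor only through its wild-type level, and Aloxe3 only through its knockout level.

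Of 12 measured genes known to respond to cyclic AMP or prostaglandin E2, 5 were higher by 2-fold or more and none (0) lower by 2-fold or more, with a median log2 ratio of 0.70. Over all measured genes 23.1% were higher and 5.25% lower, with a median of 0.39. After trimmed mean scaling 2 of the 12 were higher and 1 lower, where 13.4% and 10.3% of all measured genes were. The epidermal growth factor family gene Ereg stood at 0.95 against 112 TPM and the nuclear receptor gene Nr4a2 at 2.38 against 23.0 TPM. Areg, of the same family as Ereg, was 2.10-fold higher, at 45.2 against 95.1 TPM, and came under 2-fold after trimmed mean scaling (log2 ratio 0.67), as did Nr4a1 (0.91) and Per1 (0.65). Fos, the most abundant of the list, stood at 243 against 147 TPM and the phosphatase gene Dusp1 at 48.5 against 32.3 TPM. These genes answer to many other signals, and the part of prostaglandins in their values was not tested.

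Of 8 measured genes that control the stability or translation of Ptgs2 message, 2 were higher by 2-fold or more and 1 lower by 2-fold or more, also after trimmed mean scaling. Zfp36, which encodes tristetraprolin, a protein that speeds the decay of messages with AU-rich elements, stood at 298 against 143 TPM, 2.08-fold lower. Celf2, whose product can stabilise Ptgs2 message and hold back its translation, stood at 0.7 against 4.55 TPM, and Tia1, a translational silencer gene, at 7.42 against 21.7 TPM. Celf2 passed the floor only through its level in the knockout library. Elavl1, which encodes the stabilising protein HuR, stood at 17.1 against 26.4 TPM and Khsrp at 63.6 against 59.8 TPM. Whether these values bear on Ptgs2 was not tested.

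**Figure D5:**
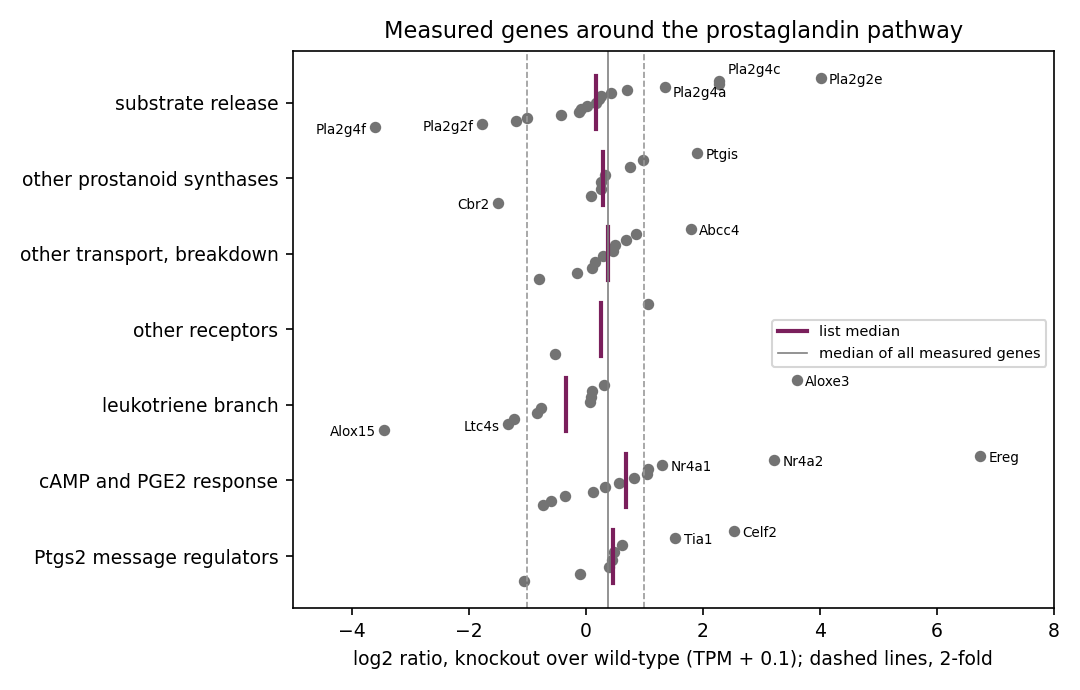
Log2 ratio of knockout over wild-type TPM (0.1 added) of each measured gene in 7 lists around the prostaglandin pathway, 1 point a gene, with the list median in purple, the median of all measured genes as a grey line at 0.39 and dashed lines at 2-fold. Points of the substrate release list lie on both sides, from Pla2g4f at -3.61 to Pla2g2e at 4.02, and the leukotriene branch has a median of -0.34.

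The libraries differed in more than genotype as labelled. Estimated depths were 20250000 reads (wild-type) and 17500000 reads (knockout), with 16267 and 16864 genes above 0. The 9 crypt base stem cell markers summed to 112 TPM in wild-type and 114 TPM in knockout cells, or 86.0 in the latter after trimmed mean scaling. The 7 measured markers had a median log2 ratio of 0.17, against 0.39 for all measured genes. Of 7 measured markers 1 was higher by 2-fold or more and 1 lower, where 23.1% and 5.25% of all measured genes were. After trimmed mean scaling the counts were 0 and 2, against 13.4% and 10.3%. Slc12a2, the most abundant, stood at 55.2 and 62.1 TPM and Smoc2 at 15.5 and 7.72 TPM. Znrf3 stood at 2.43 and 5.63 TPM, Lgr5 at 3.13 and 1.55 TPM, and Olfm4 at 0.2 TPM and a listed 0. The 12 epithelial markers summed to 29977 and 17050 TPM. T and NK cell markers summed to 69.0 and 27.7 TPM. The Y-linked genes Ddx3y and Eif2s3y stood at 0.04 against 4.27 TPM and at 0.96 against 9.48 TPM. The labels give no sex, and sex and genotype cannot be told apart with 1 library in each group. Btnl1 stood at 59.3 against 65.4 TPM, a gene-level value that does not separate circBtnl1 from the linear transcript, so it does not check the genotype. The part of any of these in the prostaglandin genes' values was not tested.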

How the data were processed

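Per the labels' protocols, total RNA was prepared with an RNAprep micro kit and built into libraries with an MGIEasy kit, and the series' design text names BGISEQ-500. The authors deposited FPKM and TPM values for each library in a single table, per the file headers, and the values have 2 decimals. Per the submitters' processing notes, Bowtie2, RSEM and DESeq2 and the build mm10 were used. Versions, roles, poly(A) selection and strand are not given in the sources used here. Estimates of this kind share reads out between near-identical copies. Of 18068 lines 1 held no values and was left out.

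The difference was log2((knockout TPM + 0.1)/(wild-type TPM + 0.1)), which understates changes of low genes. Folds are plain TPM ratios. A gene counted as measured when its mean TPM reached 1. Depth was estimated from FPKM steps of genes with 1 transcript: 62.1% of 214 genes (wild-type) and 66.1% of 307 (knockout) lay within 0.15 of a whole read, where chance gives 30%. The best depths were 18500000 to 26000000 and 16750000 to 23250000 reads over the length offsets tried. The search range was narrowed after a wider one had returned a depth of about a multiple of this in the knockout library, so depths and reads are rough. Reads per gene use the longest transcript. No interval is given.

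Alternatives were FPKM, trimmed mean scaling (30% of ratios and 5% of levels trimmed at each end), centring on the median gene, other pseudocounts, folds and floors. A log2 ratio counted as moved when it shifted by a factor of at least 1.5. The scaling and the depth estimate were tested on simulated data, with as many genes raised as lowered, little noise and depths inside the search range. In the libraries most 2-fold genes were higher in the knockout, so the simulation checks the code and not how well either method suits these data. The named genes were all members, the 2 highest, 2 lowest and the most abundant gene of each list, and the 3 genes nearest to each cyclooxygenase gene. Some genes taken by the rule are covered by counts only or are not reported here. Outside it, Adgre1, Areg, Btnl1, Cdh5, Cldn5, Ddx3y, Dpt, Eif2s3y, Elavl1, Hgf, Il25, Kdr, Nr4a1, Olfm4, Pdgfra, Per1, Pla2g4a, Ptgds, Ptger2, Ptgfr, Ramp3, Tbxas1 and Tek were chosen after their values were seen. The members and lists were chosen with earlier results of these data known. Positions and promoters come from RefSeq (GRCm38.p6, the same assembly as mm10). Protein sequences were not used here. Python 3.11.15, pandas and matplotlib were used. No column of other samples was left out (0 columns).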

Additional observations from a re-analysis of the deposited data

How the results depend on the processing

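Of 28 values of the main comparisons under alternatives, 27 stayed within a factor of 1.5 or the same count, and the exception was the number of genes at least 4-fold higher, which was 2 in place of 4. Some of the 27 were fixed beforehand. All 10 genes passed the floor, so leaving it out changed nothing, and neither scaling nor FPKM can change the cyclooxygenase to dehydrogenase ratio. The number lower was 1 in each setting. The median log2 ratio of the 10 genes ran from 0.22 (trimmed mean scaling, and centring on the median gene) to 0.98 (a floor of 5 TPM, which leaves fewer genes). Of 50 log2 ratios of single genes, 48 shifted by less than a factor of 1.5. Much of this was fixed beforehand, since trimmed mean scaling and centring move genes by about 0.40 and 0.39 on the log2 scale, below that factor. FPKM also differs from TPM only by a factor for each library. Ptges2 and Ptger1 changed sign under scaling and centring and still counted among the 48. With a pseudocount of 1 Ptgs2 went from 9.44 to 7.48 and Ptgs1 from 3.36 to 2.70, since the added value exceeds or nears their wild-type levels. The log2 difference of the cyclooxygenase to dehydrogenase ratio was 6.60 from FPKM against 6.59, scaling cannot change it, and it was not computed with other pseudocounts. No paired analysis was possible because each group had 1 library. Depth limits Ptgs2, Ptgs1 and Hpgds in the wild-type library, at an estimated 9, 34 and 50 reads.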
